A study of Mus musculus with 14 samples.

Results

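The Slc25 family encodes the mitochondrial carriers, and its transcripts were followed in the livers of obese mice in which the kinase gene Jnk1 (Mapk8) had been targeted by a short hairpin RNA (shRNA). Members were the genes whose probe sets carry a single gene symbol that begins with Slc25a, and each gene was read from whichever of its probe sets had the highest mean across the 14 arrays. The rule found 33 genes on 65 probe sets, among 12393 genes with a probe set of 1 symbol. Of these, 28 Slc25a genes and 8027 genes in all had a probe set bright enough to be tested. Liver came from C57BL/6J mice with diet-induced obesity (DIO) in every group. The groups were 5 samples treated with Jnk1 Adv-shRNA, an adenoviral hairpin against Jnk1, 4 samples treated with GFP Adv-shRNA, the hairpin against green fluorescent protein, and 5 samples treated with vehicle. The labels number the GFP shRNA samples 1, 2, 3 and 5, and array values are listed in the order of these numbers. All mice were obese, so no lean liver is in the comparison, and the vehicle samples carry no hairpin label. Age, dose and time after treatment are not given in the labels. Nor do the labels state that every sample is a mouse of its own, so the p-values rest on the spread among these samples, which may be partly technical. Total RNA was labelled with biotin and read on 1-colour Affymetrix arrays, 1 per sample.

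Mitochondrial carriers sit in the inner mitochondrial membrane, which is otherwise closed to charged metabolites, and most of them exchange a solute of the cytosol for one of the matrix. Through them ADP and phosphate enter for ATP synthesis, fatty acids enter as carnitine esters, and organic acids and amino acids move between the cytosolic and mitochondrial steps of gluconeogenesis, ammonia disposal and the redox shuttles. Liver depends on several at once, because the urea cycle, fat oxidation and glucose production are each divided between these compartments. Jnk1 is a stress-activated protein kinase whose signalling is raised in obese tissue.

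The targeted gene checks the labels. Mapk8 had log2 intensities of 6.03, 5.88, 6.36, 6.09 and 5.98 in the 5 Jnk1 shRNA arrays, against 7.34, 7.37, 7.51 and 7.31 in the 4 GFP shRNA arrays and 7.54, 7.53, 7.22, 7.53 and 7.53 in the 5 vehicle arrays. All Jnk1 shRNA arrays lay below all others, and Mapk8 fell by 1.31 ± 0.11 (log2, SE) against GFP shRNA (adjusted p = 3.50e-07). A second probe set fell by 1.12, and another differed by -0.12 (adjusted p = 0.561). Of the arrays, GFP shRNA array 2 stood apart, with the highest deposited median intensity (58.3, against 41.8 to 50.5 in the others) and the lowest mean correlation with its own group (0.942). No carrier gained or lost a call without it. The 18 spike-in control probe sets, which read control RNA of no mouse gene, averaged 8.39 ± 0.32 on the log2 scale in the Jnk1 shRNA arrays, 8.89 ± 0.07 in the GFP shRNA arrays and 8.90 ± 0.09 in the vehicle arrays (SD). The Jnk1 shRNA arrays differed from either other group in this level (exact two-sided permutation test, p = 0.0159 against each), and array 1 of that group was lowest at 7.92. As an alternative this level was added to the fit, and the calls it changes are given with each carrier. Because the level differs between the groups, that fit cannot fully tell it apart from the Jnk1 hairpin. It can also widen the errors of the Jnk1 shRNA differences. A call lost under it therefore does not show that the difference depends on the spike-in level.

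Carriers moved in both directions when Jnk1 shRNA livers were set against GFP shRNA livers. Among the 28 tested genes, 9 rose and 5 fell at an adjusted p under 0.05 (limma, Benjamini-Hochberg over all 13575 probe sets tested), and 14 did not pass. Of all probe sets, 17.3% rose and 15.8% fell in this comparison, so the carriers that fell did so about as often as probe sets in general. The median log2 fold change of the 28 genes was 0.14, beside -0.01 over all probe sets. The risers were Slc25a4, Slc25a5, Slc25a13, Slc25a20, Slc25a23, Slc25a25, Slc25a33, Slc25a46 and Slc25a47. Those that fell were Slc25a10, Slc25a11, Slc25a15, Slc25a37 and Slc25a51. The arrays of both groups did not overlap for 12 of the 28 genes, of which 7 were higher and 5 lower, beside 28.1% of all probe sets. With the spike-in level in the fit, 6 carriers rose and 5 fell against GFP shRNA, and the median was -0.04. Values of all probe sets under that fit are not given here.

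Against vehicle, 8 carriers rose and 5 fell in the Jnk1 shRNA livers, and 15 did not pass. Of all probe sets, 18.9% rose and 18.7% fell. The members' median was 0.02, beside -0.02 over all probe sets, and 11 of 28 had groups that did not overlap, beside 27.7%. With the spike-in level in the fit, 5 carriers rose and 7 fell, and the median was -0.12. The shares and the median of all probe sets under that fit are not given here. Slc25a17 and Slc25a45 were among the risers in the fit without the spike-in level, while Slc25a23, Slc25a25 and Slc25a47 did not pass. Both comparisons use the same 5 Jnk1 shRNA arrays, so they are not independent of each other. Between the GFP shRNA and vehicle livers, 0 carriers rose and 1, Slc25a25, fell in the limma fit, 1 had an unadjusted p under 0.05 among those higher and 6 among those lower, and the median was -0.06, beside -0.02 over all probe sets. The share of all probe sets with an unadjusted p under 0.05 is not given here. In that comparison 2.05% of all probe sets rose and 0.53% fell at an adjusted p under 0.05. The groups of 2 carriers, Slc25a25 and Slc25a42, did not overlap there, beside 6.30% of all probe sets. In bulk liver, fewer cells of a type and less RNA per cell cannot be told apart.

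**Figure D1:**
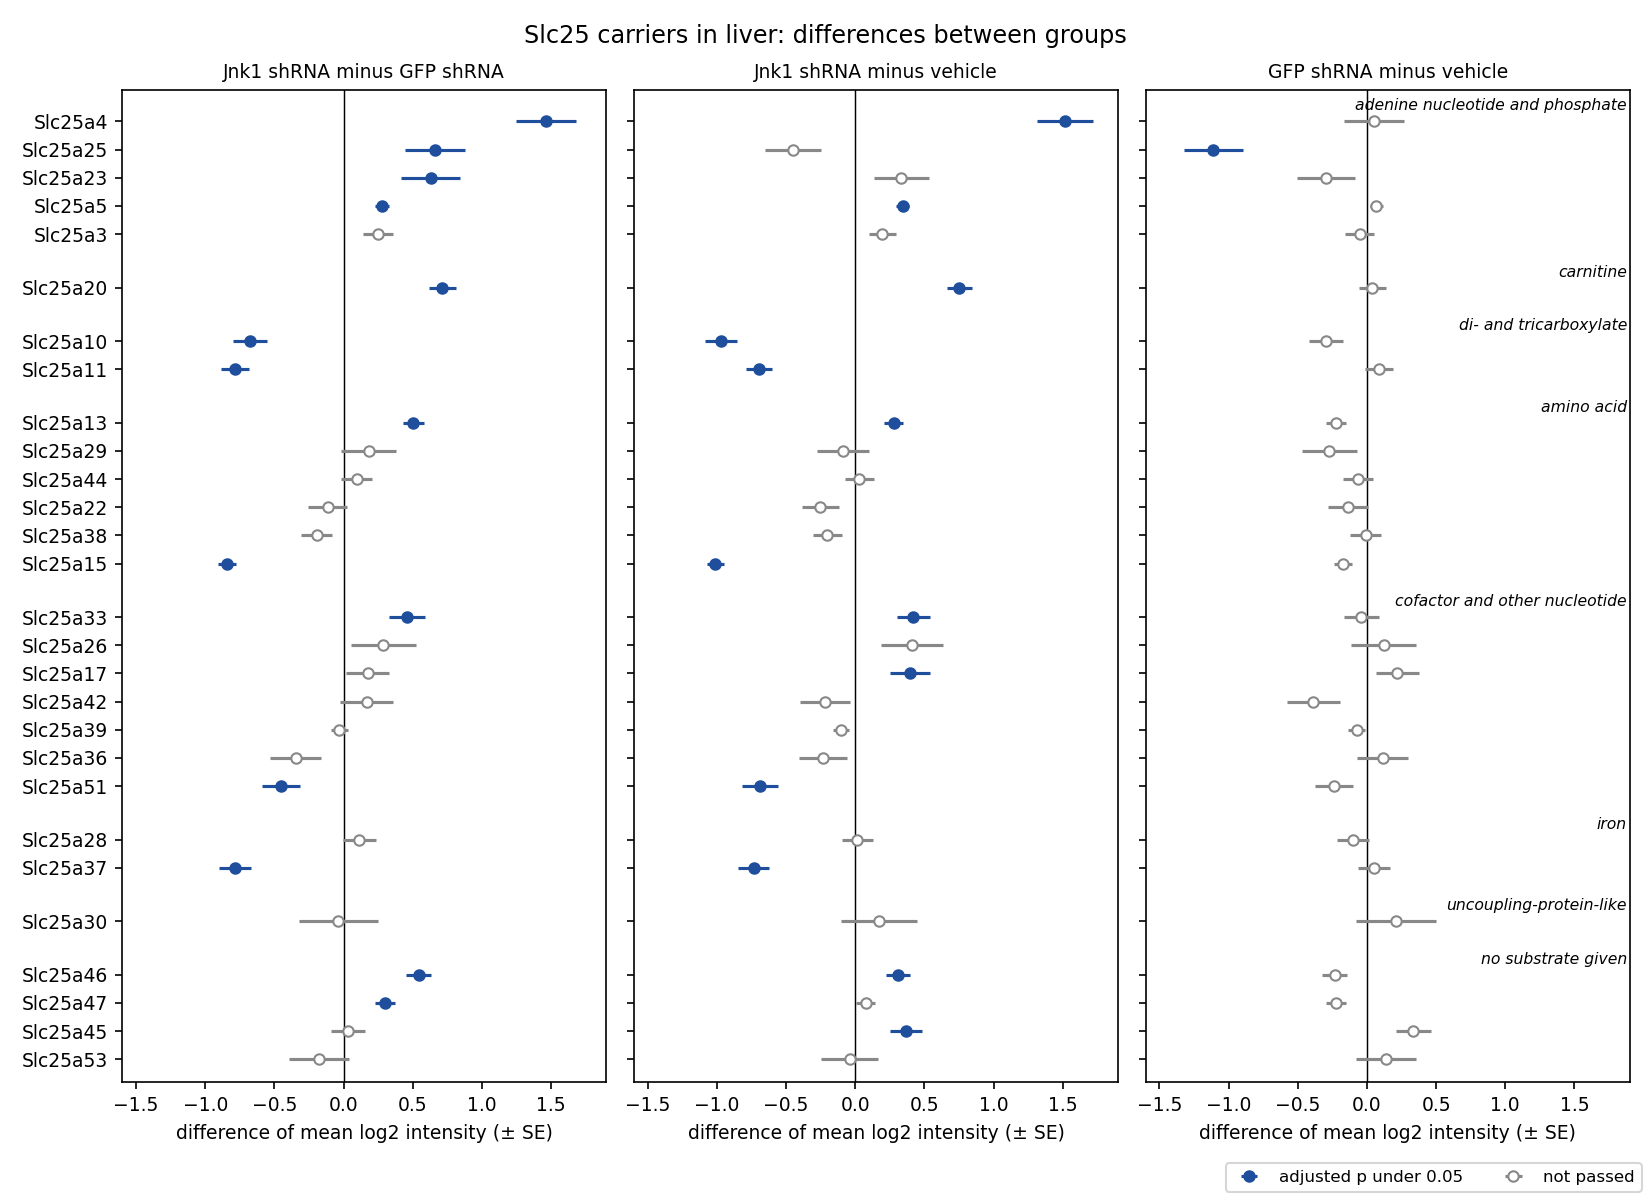
Differences of mean log2 intensity (± SE) for the 28 tested Slc25a genes, grouped by substrate, in 3 panels for Jnk1 shRNA minus GFP shRNA, Jnk1 shRNA minus vehicle and GFP shRNA minus vehicle. Filled points passed at an adjusted p under 0.05. Slc25a4 lies farthest to the right in the first panel at 1.47, Slc25a15 farthest to the left at -0.84, and the last panel has 1 filled point, Slc25a25.

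The stretches of genome before the start sites of 6 carriers are shown because these genes moved in the Jnk1 shRNA livers, 3 up and 3 down. Sequences are from RefSeq, build GRCm38.p6, and cover the 250 bases before the start, 5′ to 3′ on the gene's strand: Slc25a4 at chr8:46211063-46211312 (minus strand), Slc25a20 at chr9:108661886-108662135 (plus strand), Slc25a13 at chr6:6217174-6217423 (minus strand), Slc25a10 at chr11:120491587-120491836 (plus strand), Slc25a11 at chr11:70647040-70647289 (minus strand) and Slc25a15 at chr8:22398622-22398871 (minus strand). The start is the gene's outermost one in the annotation for 4 of the 6, while those of Slc25a13 and Slc25a11 lie 131 and 492 bases inside the annotated gene. Capitals mark matches to the 9 motifs named below. The first 3 rose against GFP shRNA and the other 3 fell.
Slc25a4: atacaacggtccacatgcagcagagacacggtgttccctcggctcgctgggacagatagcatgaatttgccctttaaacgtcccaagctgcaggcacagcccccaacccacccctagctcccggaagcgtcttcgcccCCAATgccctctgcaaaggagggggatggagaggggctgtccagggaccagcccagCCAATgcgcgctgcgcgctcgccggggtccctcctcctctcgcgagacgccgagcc
Slc25a20: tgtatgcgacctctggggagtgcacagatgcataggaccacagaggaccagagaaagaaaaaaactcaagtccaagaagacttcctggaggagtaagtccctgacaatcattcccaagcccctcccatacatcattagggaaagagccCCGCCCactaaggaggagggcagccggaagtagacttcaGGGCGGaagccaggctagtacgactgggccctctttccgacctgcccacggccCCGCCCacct
Slc25a13: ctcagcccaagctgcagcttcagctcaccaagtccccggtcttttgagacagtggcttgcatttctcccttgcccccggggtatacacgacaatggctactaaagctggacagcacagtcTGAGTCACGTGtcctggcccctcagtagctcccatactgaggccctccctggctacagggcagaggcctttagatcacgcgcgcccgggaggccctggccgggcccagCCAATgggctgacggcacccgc
Slc25a10: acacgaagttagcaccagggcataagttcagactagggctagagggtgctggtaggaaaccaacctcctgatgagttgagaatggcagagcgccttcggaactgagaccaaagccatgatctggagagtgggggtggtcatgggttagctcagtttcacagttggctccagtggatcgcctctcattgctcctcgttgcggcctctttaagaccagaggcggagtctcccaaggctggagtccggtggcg
Slc25a11: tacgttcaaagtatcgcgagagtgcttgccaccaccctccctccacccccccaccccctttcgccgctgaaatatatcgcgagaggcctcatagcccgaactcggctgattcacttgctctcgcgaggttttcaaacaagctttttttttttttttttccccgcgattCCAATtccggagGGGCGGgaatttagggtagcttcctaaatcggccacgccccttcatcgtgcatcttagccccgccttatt
Slc25a15: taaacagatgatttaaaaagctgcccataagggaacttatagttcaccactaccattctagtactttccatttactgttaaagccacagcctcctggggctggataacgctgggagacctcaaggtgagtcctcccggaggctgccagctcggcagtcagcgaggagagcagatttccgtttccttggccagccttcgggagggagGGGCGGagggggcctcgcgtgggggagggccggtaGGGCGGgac

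Motifs were searched on both strands in a window of 300 bases, from 250 before to 50 after the start, in 23 of the 28 tested carriers and in 17492 protein-coding promoters, with 1 promoter a gene. Of the 23 windows, 14 sit at the outermost start of the gene. The GC box GGGCGG was present in 6 of the 8 carriers that rose, 3 of the 3 that fell and 12 of the 12 that did not pass, and in 46.3% of all promoters. The CCAAT box was present in 6 of 8, 2 of 3 and 6 of 12 of the same sets, and in 39.1% of all promoters. Slc25a4 holds 2 CCAAT boxes before its start, Slc25a20 holds 3 GC boxes and Slc25a15 holds 2, while the matches of Slc25a10 lie at or after the start. The AP-1 site TGACTCA, the element bound by the Jun proteins that Jnk phosphorylates, was found in 1 carrier of the 23, Slc25a13, on the minus strand 130 bases before the start, and in 4.56% of all promoters. It shares bases there with a match to the E-box CACGTG, which 2 of 8 risers, 0 of 3 fallers and 1 of 12 others held, beside 7.91% of all promoters. The TATA box TATAAA (13.3% of all promoters), the estrogen-related receptor site TCAAGGTCA (0.332%) and the nuclear respiratory factor 1 core GCGCATGCG (2.40%) had no match in the 23. The cAMP response element TGACGTCA (2.33%) matched 1 carrier that did not pass, and the half-site AGGTCA (14.5%), which lies within the estrogen-related receptor site, matched 1 riser and 2 that did not pass. A match describes letters in this window and shows no binding.

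The adenine nucleotide and phosphate carriers held the largest rise. Of 5 tested, 4 rose against GFP shRNA and 2 against vehicle, beside 17.3% and 18.9% of all probe sets. Their median log2 fold changes were 0.63 and 0.33, and both medians are the values of Slc25a23. Of the risers against GFP shRNA, Slc25a5, Slc25a23 and Slc25a25 lost their calls under some alternatives, while Slc25a4 kept its call under all of them. Slc25a4 encodes the ADP/ATP translocase that predominates in heart and skeletal muscle. Its log2 intensities were 6.90, 7.53, 7.84, 7.28 and 7.37 in the 5 Jnk1 shRNA arrays, against 5.88, 6.23, 5.96 and 5.60 in the 4 GFP shRNA arrays and 5.54, 6.39, 6.20, 5.84 and 5.37 in the 5 vehicle arrays. All 5 Jnk1 shRNA arrays lay above the 9 others, and the 2 control groups overlapped. The difference was 1.47 ± 0.22 (SE) against GFP shRNA, or 2.76-fold (adjusted p = 8.29e-05), and 1.52 ± 0.20 against vehicle, or 2.86-fold (adjusted p = 2.35e-05). Its mean intensity was 167 in Jnk1 shRNA livers, 60.4 in GFP shRNA livers and 58.4 in vehicle livers, among the dimmer of the carriers that moved. The 2 other tested Slc25a4 probe sets rose by 1.75 and 2.31 against GFP shRNA. Of 4 muscle markers 1 could be tested: Ckm, the muscle creatine kinase, differed by -0.21 against GFP shRNA (adjusted p = 0.631), Acta1, Myh4 and Tnnt3 were too dim to be tested, and the summed intensity of the 4 was 42.5 to 52.8 in Jnk1 shRNA, 64.1 to 88.2 in GFP shRNA and 64.9 to 472 in vehicle arrays.

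Slc25a5, the ADP/ATP translocase found in most tissues, was one of the brightest carriers. It measured 11.67, 11.70, 11.80, 11.60 and 11.69 in the 5 Jnk1 shRNA arrays, against 11.36, 11.40, 11.44 and 11.45 in the 4 GFP shRNA arrays and 11.46, 11.36, 11.32, 11.31 and 11.28 in the 5 vehicle arrays. Within a narrow spread, the Jnk1 shRNA arrays lay above all others. Slc25a5 rose by 0.28 ± 0.05 against GFP shRNA (adjusted p = 4.58e-04) and by 0.34 ± 0.05 against vehicle (adjusted p = 2.46e-05). Its 8 probe sets differed by 0.28 to 0.52 against GFP shRNA, and 1 of them did not pass (adjusted p = 0.151). The calls of Slc25a5 depended on the scaling: the difference against GFP shRNA was 0.08 in the values as deposited (adjusted p = 0.360) and 0.24 after median scaling of the arrays (adjusted p = 0.121). Against vehicle the values were 0.11 (adjusted p = 0.189) and 0.14 (adjusted p = 0.355). The probe sets used for Slc25a4 and Slc25a5 are of a type that can hold probes shared with other sequences, and how far these related genes cross-hybridise was not tested.

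The phosphate carrier Slc25a3, which brings in the phosphate for ATP synthesis, had 11.69, 11.33, 12.00, 11.32 and 11.36 in the 5 Jnk1 shRNA arrays, against 11.32, 11.30, 11.24 and 11.30 in the 4 GFP shRNA arrays and 11.38, 11.33, 11.31, 11.36 and 11.35 in the 5 vehicle arrays. In the Jnk1 shRNA group arrays 1 and 3 were high and the other 3 lay within the range of the controls. Its difference of 0.25 ± 0.11 against GFP shRNA did not pass (adjusted p = 0.0855), nor did 0.20 ± 0.10 against vehicle (adjusted p = 0.142). The first passed without Jnk1 shRNA array 2 or 4 (adjusted p = 0.0454 and 0.0453). The calcium-regulated ATP-Mg/phosphate carrier Slc25a23 was high in the same arrays, with 9.05, 7.72, 8.47, 7.86 and 8.13 in the 5 Jnk1 shRNA arrays, against 7.75, 7.71, 7.44 and 7.56 in the 4 GFP shRNA arrays and 8.18, 8.18, 7.61, 7.84 and 7.75 in the 5 vehicle arrays. It rose by 0.63 ± 0.21 against GFP shRNA (adjusted p = 0.0311) with overlapping groups, and its difference of 0.33 against vehicle did not pass (adjusted p = 0.211). With the spike-in level in the fit its difference against GFP shRNA was -0.06 (adjusted p = 0.882), and without Jnk1 shRNA array 1 it was 0.43 (adjusted p = 0.0566). The call was also lost without Jnk1 shRNA array 3, without GFP shRNA array 3 or 5, or without the filter on dim probe sets (adjusted p between 0.0600 and 0.0804). Jnk1 shRNA arrays 1 and 3 had the lowest spike-in levels of the group, 7.92 and 8.33, beside 8.38 to 8.79 in its other arrays.

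Slc25a25, a second calcium-regulated ATP-Mg/phosphate carrier, had 8.52, 8.32, 8.60, 8.45 and 8.81 in the 5 Jnk1 shRNA arrays, against 7.57, 8.20, 8.15 and 7.60 in the 4 GFP shRNA arrays and 8.49, 9.72, 9.11, 8.51 and 9.12 in the 5 vehicle arrays. The GFP shRNA arrays lay below both other groups, and the Jnk1 shRNA and vehicle arrays overlapped. It fell to a mean of 7.88 ± 0.34 in GFP shRNA livers, against 8.99 ± 0.51 in vehicle livers (SD), a difference of -1.11 ± 0.22 (SE, adjusted p = 0.00939). Against GFP shRNA the Jnk1 shRNA livers were higher by 0.66 ± 0.22 (adjusted p = 0.0267), and against vehicle the difference was -0.45 ± 0.20 (adjusted p = 0.0956). The rise against GFP shRNA did not pass without Jnk1 shRNA array 3 or 5, without GFP shRNA array 1 or 5, without the filter on dim probe sets, or with the spike-in level in the fit (0.49, adjusted p = 0.339). The difference against vehicle passed without vehicle array 1 or 4 (adjusted p = 0.0355 and 0.0415). Slc25a24, a further member of this subgroup, was too dim to be tested, with mean intensities of 10.1 in Jnk1 shRNA, 6.03 in GFP shRNA and 8.31 in vehicle livers.

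**Figure D2:**
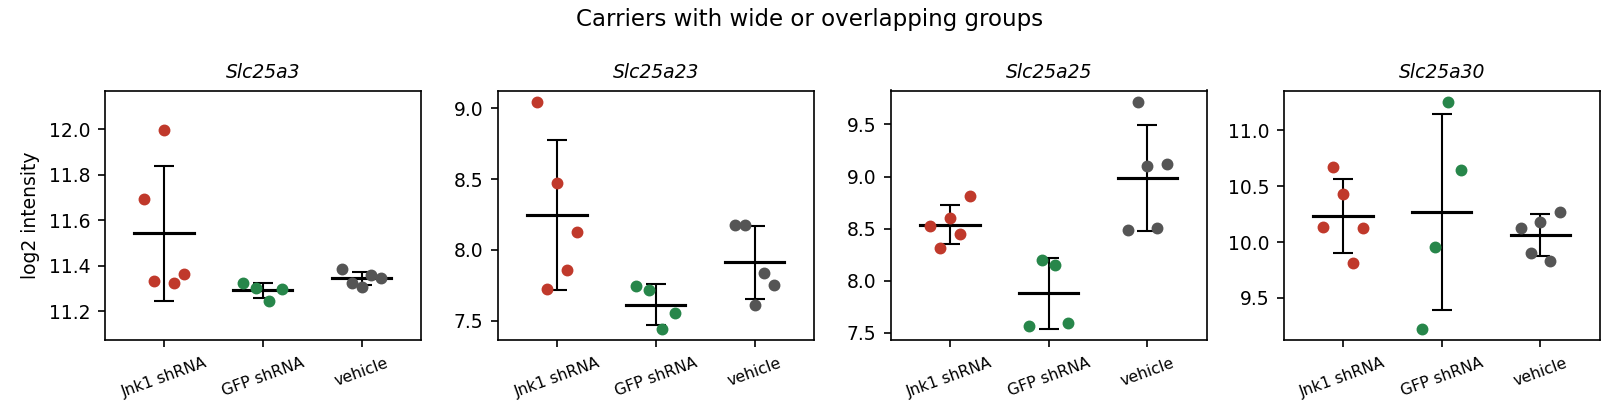
Log2 intensity on each array for Slc25a3, Slc25a23, Slc25a25 and Slc25a30, with points for the 5 Jnk1 shRNA, 4 GFP shRNA and 5 vehicle arrays, left to right, and the group mean ± SD as lines. The wide Jnk1 shRNA spread of Slc25a3 and Slc25a23 comes with 2 high arrays each, the GFP shRNA arrays of Slc25a25 lie lowest, and the GFP shRNA arrays of Slc25a30 run between 9.22 and 11.25.

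The carnitine/acylcarnitine carrier Slc25a20, which brings long-chain fatty acyl groups into the matrix for oxidation, rose in the Jnk1 shRNA livers. Its log2 intensities were 10.39, 10.52, 10.63, 10.44 and 10.39 in the 5 Jnk1 shRNA arrays, against 9.63, 9.50, 9.91 and 10.00 in the 4 GFP shRNA arrays and 9.78, 9.65, 9.68, 9.59 and 9.91 in the 5 vehicle arrays. No Jnk1 shRNA array overlapped with either control group. The difference was 0.71 ± 0.10 against GFP shRNA (1.64-fold, adjusted p = 4.23e-05) and 0.75 ± 0.09 against vehicle (1.69-fold, adjusted p = 8.95e-06). GFP shRNA and vehicle livers differed by 0.04 (adjusted p = 0.895). A second probe set rose by 0.78 against GFP shRNA.

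Both di- and tricarboxylate carriers that could be tested fell, beside 15.8% of all probe sets against GFP shRNA and 18.7% against vehicle. Slc25a10, the dicarboxylate carrier that exchanges malate or succinate for phosphate, had 8.30, 8.25, 8.29, 8.41 and 8.30 in the 5 Jnk1 shRNA arrays, against 9.12, 8.46, 9.23 and 9.14 in the 4 GFP shRNA arrays and 9.25, 9.31, 9.18, 9.42 and 9.26 in the 5 vehicle arrays. GFP shRNA array 2 was the lowest control, and the Jnk1 shRNA arrays still lay below it. Slc25a10 was 1.60-fold lower than in GFP shRNA livers (log2 -0.67 ± 0.12, adjusted p = 5.06e-04) and 1.96-fold lower than in vehicle livers (log2 -0.97 ± 0.12, adjusted p = 6.19e-06). The first call did not pass after median scaling of the arrays (-0.46, adjusted p = 0.0552). Slc25a11, the carrier that exchanges 2-oxoglutarate for malate in the malate-aspartate shuttle, had 7.93, 7.61, 7.82, 7.76 and 8.01 in the 5 Jnk1 shRNA arrays, against 8.47, 8.77, 8.53 and 8.68 in the 4 GFP shRNA arrays and 8.49, 8.64, 8.43, 8.38 and 8.69 in the 5 vehicle arrays. All Jnk1 shRNA arrays were lower than every control array, and the 2 control groups overlapped. It was 1.72-fold lower against GFP shRNA (log2 -0.79 ± 0.10, adjusted p = 1.79e-05) and 1.62-fold lower against vehicle (log2 -0.70 ± 0.09, adjusted p = 2.09e-05). The citrate carrier Slc25a1 was not analysed here, as no probe set carried its symbol alone.

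Of 6 tested amino acid carriers, 1 rose, 1 fell and 4 did not pass in each comparison of Jnk1 shRNA livers. Of all probe sets, 17.3% rose and 15.8% fell against GFP shRNA, and 18.9% rose and 18.7% fell against vehicle. The amino acid carriers thus passed about as often as probe sets in general. Slc25a15 encodes the ornithine carrier that links the cytosolic and matrix steps of the urea cycle. It had 9.92, 10.08, 10.07, 10.01 and 10.10 in the 5 Jnk1 shRNA arrays, against 11.01, 10.69, 10.86 and 10.97 in the 4 GFP shRNA arrays and 11.06, 10.99, 11.04, 11.10 and 11.06 in the 5 vehicle arrays. All 5 Jnk1 shRNA arrays lay well below the controls, and this was the smallest adjusted p of any carrier in either comparison. Slc25a15 was 1.79-fold lower against GFP shRNA (log2 -0.84 ± 0.07, adjusted p = 1.75e-07) and 2.02-fold lower against vehicle (log2 -1.01 ± 0.06, adjusted p = 6.13e-09). Its second probe set fell by 1.02 against GFP shRNA.

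Slc25a13 encodes citrin, the aspartate/glutamate carrier of liver, which serves the malate-aspartate shuttle and supplies aspartate to the urea cycle. It had 9.99, 10.28, 10.18, 10.21 and 10.06 in the 5 Jnk1 shRNA arrays, against 9.65, 9.52, 9.75 and 9.63 in the 4 GFP shRNA arrays and 9.73, 9.85, 9.91, 9.87 and 9.96 in the 5 vehicle arrays. The Jnk1 shRNA arrays were above all others, and the GFP shRNA arrays tended to be the lowest, overlapping with vehicle. Slc25a13 rose by 0.50 ± 0.07 against GFP shRNA (1.42-fold, adjusted p = 7.35e-05) and by 0.28 ± 0.07 against vehicle (1.21-fold, adjusted p = 0.00448). The second call did not pass after median scaling of the arrays (adjusted p = 0.130). Slc25a13 and Slc25a11, partners in the malate-aspartate shuttle, differed in opposite directions. The glutamate carrier Slc25a22 had 9.01, 8.41, 9.02, 8.48 and 9.02 in the 5 Jnk1 shRNA arrays, against 9.12, 8.70, 8.87 and 8.93 in the 4 GFP shRNA arrays and 9.12, 9.29, 8.86, 8.89 and 9.04 in the 5 vehicle arrays. These values overlapped throughout, and no difference passed (-0.12 ± 0.14 against GFP shRNA, adjusted p = 0.565). Slc25a38, which carries glycine for heme synthesis, differed by -0.19 (adjusted p = 0.207), with Jnk1 shRNA arrays below all GFP shRNA arrays. Slc25a29, a carrier of basic amino acids, and Slc25a44, of branched-chain amino acids, differed by 0.18 and 0.09 and did not pass. The ornithine carrier Slc25a2 was too dim to be tested, with mean intensities of 14.5 in Jnk1 shRNA, 15.3 in GFP shRNA and 16.3 in vehicle livers.

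**Figure D3:**
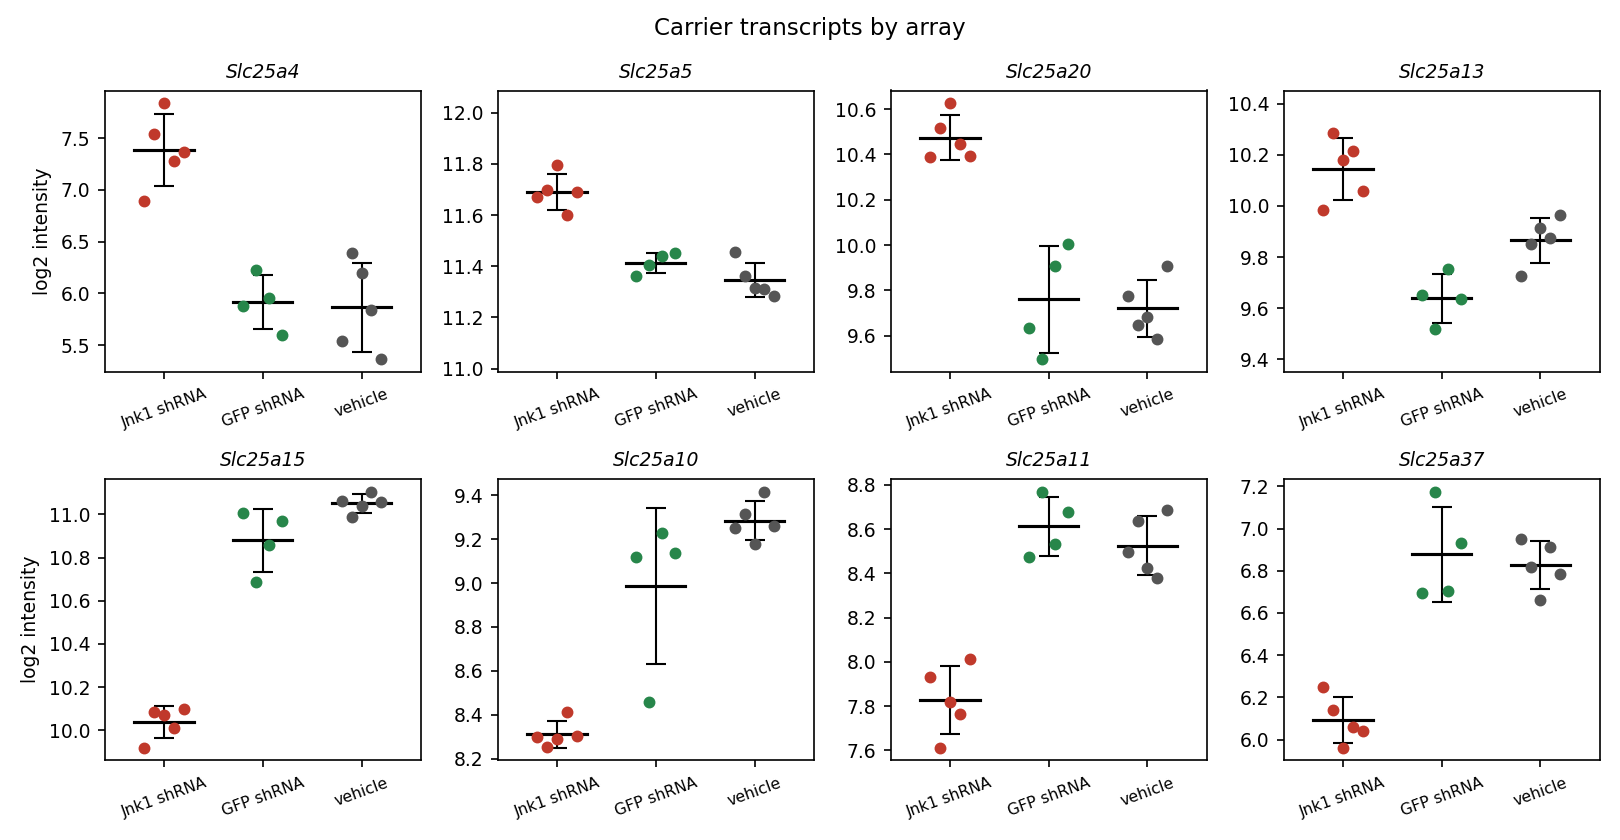
Log2 intensity on each array for Slc25a4, Slc25a5, Slc25a20 and Slc25a13 (upper panels) and Slc25a15, Slc25a10, Slc25a11 and Slc25a37 (lower panels), with points for the 5 Jnk1 shRNA, 4 GFP shRNA and 5 vehicle arrays, left to right, and the group mean ± SD as lines. Each panel has its own scale. The Jnk1 shRNA arrays lie above both control groups in the upper panels and below them in the lower panels.

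Among 7 carriers of cofactors and other nucleotides, 1 rose and 1 fell against GFP shRNA, beside 17.3% and 15.8% of all probe sets. Slc25a33, a pyrimidine nucleotide carrier, had 7.79, 8.17, 7.92, 7.62 and 7.75 in the 5 Jnk1 shRNA arrays, against 7.13, 7.46, 7.70 and 7.28 in the 4 GFP shRNA arrays and 7.36, 7.49, 7.59, 7.27 and 7.44 in the 5 vehicle arrays. The Jnk1 shRNA group overlapped with GFP shRNA through 1 array of each and lay above vehicle. It rose by 0.46 ± 0.13 against GFP shRNA (adjusted p = 0.0111) and by 0.42 ± 0.12 against vehicle (adjusted p = 0.0111). With the spike-in level in the fit the difference against vehicle was larger, at 0.54, but its call was lost (adjusted p = 0.0515). Slc25a36, the other pyrimidine nucleotide carrier, differed by -0.35 ± 0.19 and -0.23 ± 0.17 in the same comparisons and did not pass, but its difference against GFP shRNA passed in the values as deposited, at -0.55 (adjusted p = 0.0312). Slc25a51, the mitochondrial NAD+ carrier, had 8.51, 8.08, 8.45, 8.29 and 8.29 in the 5 Jnk1 shRNA arrays, against 9.15, 8.65, 8.83 and 8.48 in the 4 GFP shRNA arrays and 8.77, 8.82, 9.29, 9.10 and 9.09 in the 5 vehicle arrays. The lowest GFP shRNA array overlapped with the Jnk1 shRNA group, and all vehicle arrays lay above the Jnk1 shRNA group. Slc25a51 fell by 0.45 ± 0.14 against GFP shRNA (adjusted p = 0.0180) and by 0.69 ± 0.13 against vehicle (adjusted p = 4.77e-04). Its fall against GFP shRNA is the less settled value, since the 2 other probe sets differed by -0.22 and -0.47 without passing (adjusted p = 0.149 and 0.0558), and the call did not pass without GFP shRNA array 1 (-0.33, adjusted p = 0.0702) or after median scaling of the arrays (-0.23, adjusted p = 0.341).

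The peroxisomal cofactor carrier Slc25a17 was higher by 0.40 ± 0.15 against vehicle (adjusted p = 0.0429), a call that was lost under 13 of 26 alternatives, and it differed by 0.18 against GFP shRNA (adjusted p = 0.408). Slc25a39, linked to glutathione import and one of the brightest carriers, had means of 11.08 ± 0.13 in Jnk1 shRNA, 11.11 ± 0.06 in GFP shRNA and 11.18 ± 0.04 in vehicle livers (SD), and no difference passed. Its difference of -0.11 against vehicle passed under 3 alternatives, at -0.25 (adjusted p = 0.0104) in the values as deposited, -0.27 (adjusted p = 0.0186) with the spike-in level in the fit and -0.15 (adjusted p = 0.0296) as the mean over its probe sets. Slc25a42, a coenzyme A carrier, was highest within the Jnk1 shRNA group in arrays 1 and 3, at 7.81 and 7.62, beside 6.71 to 6.97 in its other arrays, as Slc25a3 and Slc25a23 were, and it did not pass in any comparison. Against vehicle its difference of -0.22 (adjusted p = 0.371) became -0.79 and passed with the spike-in level in the fit (adjusted p = 0.01996). Slc25a26, the S-adenosylmethionine carrier, differed by 0.29 against GFP shRNA and 0.41 against vehicle and did not pass.

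Of the 2 iron carriers, the mitoferrins, 1 fell, beside 15.8% of all probe sets against GFP shRNA and 18.7% against vehicle. Slc25a37, mitoferrin 1, which supplies iron for heme synthesis in red cell precursors, had 6.25, 6.14, 5.96, 6.06 and 6.04 in the 5 Jnk1 shRNA arrays, against 6.70, 7.17, 6.70 and 6.93 in the 4 GFP shRNA arrays and 6.95, 6.82, 6.66, 6.91 and 6.78 in the 5 vehicle arrays. Every Jnk1 shRNA array was below every control array. It was 1.72-fold lower against GFP shRNA (log2 -0.79 ± 0.12, adjusted p = 8.74e-05) and 1.66-fold lower against vehicle (log2 -0.73 ± 0.11, adjusted p = 6.59e-05). Slc25a28, mitoferrin 2, the form of other tissues, differed by 0.11 ± 0.12 and 0.01 ± 0.11 and did not pass (adjusted p = 0.486 and 0.939). Of 5 red cell markers on the array, 2 could be tested: Alas2, which starts heme synthesis in red cell precursors, differed by -2.02 against GFP shRNA (adjusted p = 7.95e-08), and Tfrc, the transferrin receptor of many cell types, was higher by 1.11 (adjusted p = 0.0177), a call lost without GFP shRNA array 1 (adjusted p = 0.0620) and also when the spike-in level entered the fit (adjusted p = 0.0904). The summed intensity of the 5 was 454 to 635 in Jnk1 shRNA, 646 to 827 in GFP shRNA and 704 to 1215 in vehicle arrays, Hba-a1, Slc4a1 and Epb42 were too dim to be tested, and the part of red cell precursors in the fall of Slc25a37 was not tested.

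Members to which no transported substrate was assigned include Slc25a46, a protein of the outer mitochondrial membrane that acts in mitochondrial shape. It had 8.98, 9.23, 9.04, 9.08 and 9.03 in the 5 Jnk1 shRNA arrays, against 8.67, 8.57, 8.48 and 8.39 in the 4 GFP shRNA arrays and 8.53, 8.97, 8.86, 8.73 and 8.72 in the 5 vehicle arrays. The Jnk1 shRNA arrays were the highest, ahead of the top vehicle array by little. Slc25a46 rose by 0.54 ± 0.09 against GFP shRNA (1.46-fold, adjusted p = 2.58e-04) and by 0.31 ± 0.09 against vehicle (adjusted p = 0.00925), and its second probe set rose by 0.27 and 0.26. In the fit with the spike-in level the call of Slc25a46 against vehicle was lost, at 0.37 (adjusted p = 0.0639). Slc25a47, expressed mainly in liver, had a mean of 10.88 ± 0.03 in Jnk1 shRNA livers, 10.58 ± 0.14 in GFP shRNA livers and 10.81 ± 0.13 in vehicle livers (SD). It was higher by 0.30 ± 0.07 against GFP shRNA (adjusted p = 0.00459) and differed by 0.08 against vehicle (adjusted p = 0.419). With the spike-in level in the fit the first difference was 0.26 (adjusted p = 0.114). Slc25a45 was higher by 0.37 ± 0.12 against vehicle (adjusted p = 0.0203) and differed by 0.03 against GFP shRNA. Its call against vehicle did not pass without Jnk1 shRNA array 3, without vehicle array 3 or 5, or with the spike-in level in the fit. Slc25a53, close to the filter on dim probe sets, and Slc25a30, related to the uncoupling proteins, did not pass in any comparison.

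The carriers differed widely in how far replicates spread. Slc25a5 had the smallest residual SD within groups, 0.06 on the log2 scale, and Slc25a30 the largest, 0.51. In the GFP shRNA group Slc25a30 ran between 9.22 and 11.25, so its difference of -0.04 ± 0.29 against GFP shRNA is loosely fixed. The remaining members too dim to be tested, with mean intensities from 2.30 to 27.1 in the groups, were Slc25a14, Slc25a35 and Slc25a48. Where a carrier had several tested probe sets, those that passed against GFP shRNA ran in 1 direction for that gene.

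**Figure D4:**
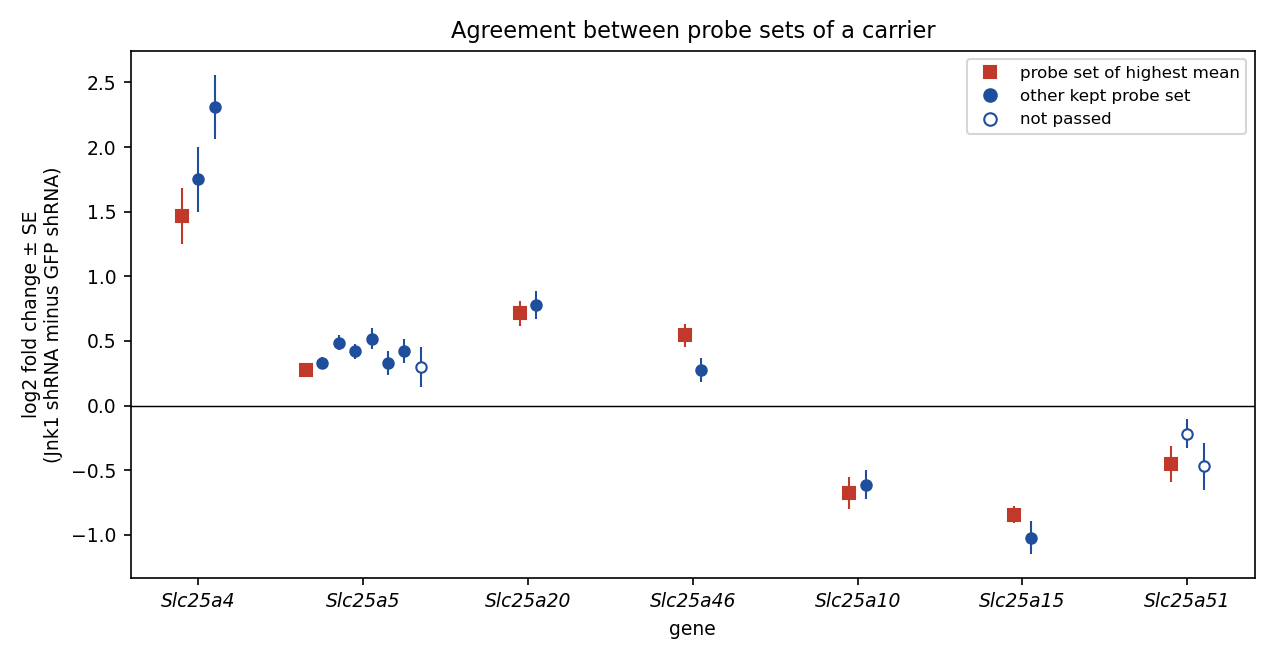
Log2 fold change (± SE) of Jnk1 shRNA minus GFP shRNA for each tested probe set of the 7 carriers that passed and have more than 1, with the probe set of highest mean as a square and others as circles, open where the adjusted p was not under 0.05. All probe sets of a gene lie on one side of 0, and those of Slc25a4 range from 1.47 to 2.31.

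Proteins that bring carriers into the inner membrane were tested as a separate list. Of 13, 8 rose and 1 fell against GFP shRNA, and 7 rose and 1 fell against vehicle, with medians of 0.40 and 0.28. Beside these counts, 17.3% and 18.9% of all probe sets rose in the same comparisons, and 15.8% and 18.7% fell. With the spike-in level in the fit, 4 rose and 1 fell against GFP shRNA, and 4 rose and 2 fell against vehicle. Shares of all probe sets under that fit are not given here. The calls of Timm9 (0.43, adjusted p = 0.0427) and Tomm7 (0.29, adjusted p = 0.0435) against GFP shRNA were lost under 10 and 11 alternatives. That of Timm10 against vehicle (0.28, adjusted p = 0.0495) was lost under 11. Timm9, Tomm7 and Timm10 were named after their values were seen. Tomm22, a receptor of the outer membrane translocase, rose by 0.69 ± 0.09 against GFP shRNA (adjusted p = 1.72e-05) and 0.74 against vehicle. Timm13, a chaperone of the space between the membranes, rose by 0.70 ± 0.08 (adjusted p = 4.87e-06) and 0.54. Its partner forms moved in opposite directions: Timm8b rose by 1.52 ± 0.21 (adjusted p = 4.52e-05), while Timm8a1 differed by -1.64 ± 0.08 (adjusted p = 1.35e-09). Timm8a1 had 7.03, 7.05, 6.98, 7.12 and 7.05 in the 5 Jnk1 shRNA arrays, against 8.66, 8.59, 8.85 and 8.67 in the 4 GFP shRNA arrays and 8.77, 8.68, 8.78, 8.83 and 8.61 in the 5 vehicle arrays. These Jnk1 shRNA values lay far below both control groups, which overlapped.

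Enzymes that make or use the carried metabolites moved both ways. Of 19 tested, 7 rose and 5 fell against GFP shRNA, and 7 rose and 7 fell against vehicle. Of all probe sets, 17.3% rose and 15.8% fell against GFP shRNA, and 18.9% rose and 18.7% fell against vehicle. Pdk4, which blocks pyruvate oxidation, rose by 2.55 ± 0.28 against GFP shRNA (adjusted p = 5.45e-06). Crat, carnitine acetyltransferase, which makes acetylcarnitine, rose by 1.77 ± 0.16 (adjusted p = 9.81e-07), beside the rise of the carnitine carrier Slc25a20. Cs, citrate synthase, rose by 1.07 ± 0.08 (adjusted p = 1.69e-07). The other risers, named after their values were seen, were Got2, Mdh2, Me1 and Glud1. The call of Glud1 (0.42, adjusted p = 5.27e-05) was lost under 2 alternatives. Oat, ornithine aminotransferase, differed by -1.05 ± 0.12 (adjusted p = 5.23e-06), beside the fall of the ornithine carrier Slc25a15, and the others that fell, named after their values were seen, were Gpd2, Otc, Gpd1 and Pcx. The calls of Gpd1 (-0.39, adjusted p = 0.0236) and Pcx (-0.23, adjusted p = 0.0387) were lost under 5 and 7 alternatives, and after median scaling of the arrays they differed by -0.17 and -0.04. Otc, which condenses ornithine with carbamoyl phosphate in the matrix, differed by -0.39 (adjusted p = 8.30e-04). Against vehicle the differences were 2.21 for Pdk4, 1.51 for Crat, 1.14 for Cs and -1.20 for Oat.

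**Figure D5:**
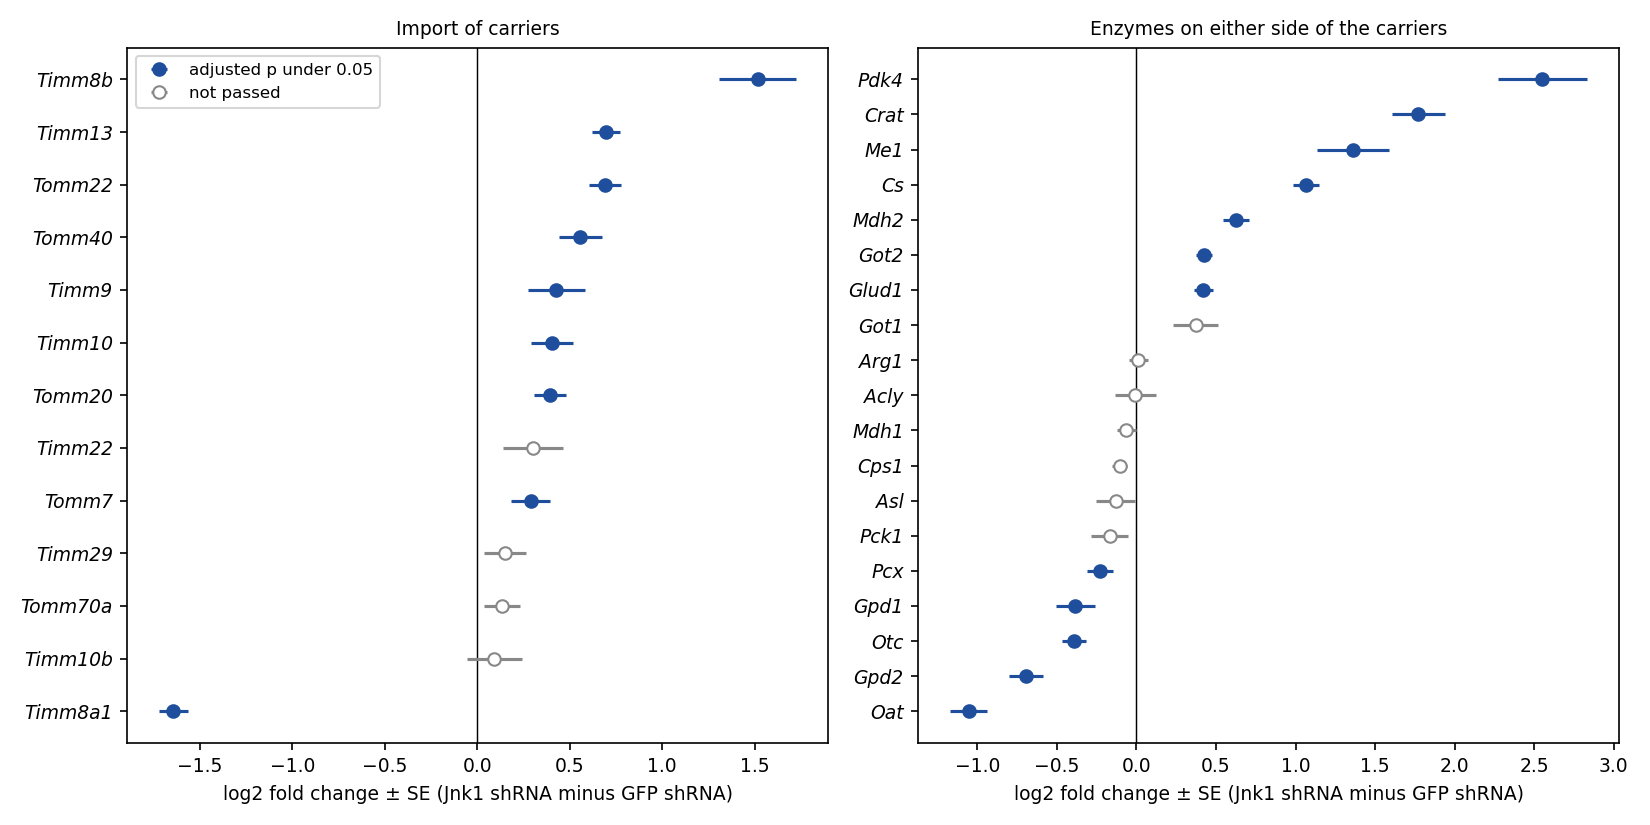
Log2 fold change (± SE) of Jnk1 shRNA minus GFP shRNA for tested proteins of carrier import (left) and for enzymes on either side of the carriers (right), ordered by size, with filled points at an adjusted p under 0.05. Timm8b at 1.52 and Timm8a1 at -1.64 mark the ends on the left, and Pdk4 at 2.55 and Oat at -1.05 those on the right.

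Of 14 other mitochondrial transport proteins, 5 rose and 1 fell against GFP shRNA, and 4 rose and 1 fell against vehicle, beside 17.3% and 15.8% of all probe sets, and 18.9% and 18.7%. When the spike-in level was added, 1 rose and 1 fell against GFP shRNA, and 2 rose and 1 fell against vehicle. Shares of all probe sets under that fit are not given here. The transport proteins that rose against GFP shRNA without that level were Cpt2, Sfxn1, Vdac2, Sfxn2 and Abcb8, the last pair named after their values were seen. The call of Abcb8 (0.40, adjusted p = 0.0471) was lost without GFP shRNA array 1 or 3, without Jnk1 shRNA array 1, 3 or 5, without vehicle array 1 or 4, and with the spike-in level in the fit (0.18, adjusted p = 0.615). That of Sfxn2 was lost without GFP shRNA array 3 (adjusted p = 0.0624) and also when the spike-in level entered the fit (adjusted p = 0.223). Cpt2, which rebuilds acyl-CoA inside the membrane from the acylcarnitine that Slc25a20 delivers, rose by 0.62 ± 0.09 (adjusted p = 5.64e-05). Cpt1a, which makes acylcarnitine on the outer membrane, differed by -0.39 ± 0.09 (adjusted p = 0.00249), although after median scaling of the arrays its difference was -0.21 (adjusted p = 0.237). The serine transporter Sfxn1 rose by 0.50 and the outer membrane channel Vdac2 by 0.37, and neither passed with the spike-in level in the fit (adjusted p = 0.0876 and 0.371). Among 3 tested carrier relatives with other symbols, 0 passed against GFP shRNA in the limma fit, and 1, Mtch2, had an unadjusted p under 0.05. Mtch1 and Mtch2, carrier-like proteins of the outer membrane, differed against vehicle by -0.38 and -0.23 (adjusted p = 0.0335 and 0.0103), and neither passed after median scaling of the arrays (adjusted p = 0.102 and 0.242). In the fit with the spike-in level Mtch1 differed by -0.62 against GFP shRNA (adjusted p = 0.0140) and Mtch2 by -0.09 against vehicle (adjusted p = 0.506). Ucp3, a relative of the uncoupling protein of brown fat, differed by -0.26 against GFP shRNA (adjusted p = 0.320). Between GFP shRNA and vehicle livers, 0 of the 49 tested genes of these 4 lists passed in the limma fit. Of all probe sets, 2.05% rose and 0.53% fell there. Among the 49, 8 had an unadjusted p under 0.05. The share of all probe sets with such a p is not given here, nor is it for Jnk1 shRNA against GFP shRNA.

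Transcripts of other liver cell types also differed between the groups. Of 8 tested Kupffer cell and macrophage markers, 7 fell in Jnk1 shRNA livers against GFP shRNA and 4 against vehicle, beside 15.8% and 18.7% of all probe sets, and the summed intensity of the 9 on the array was 2247 to 2825 in Jnk1 shRNA, 4379 to 4898 in GFP shRNA and 2637 to 4281 in vehicle arrays. Of 7 endothelial markers 3 fell against GFP shRNA and 5 against vehicle, with sums of 722 to 841 in Jnk1 shRNA, 921 to 1148 in GFP shRNA and 1069 to 1141 in vehicle arrays. Of 4 tested stellate cell markers 2 fell in each comparison, with sums over 7 of 1267 to 1419 in Jnk1 shRNA, against 1819 to 2087 in GFP shRNA and 1605 to 1917 in vehicle arrays. Lymphocyte markers did not fall: of 2 tested, neither passed against GFP shRNA and 1 rose against vehicle, beside 18.9% of all probe sets. Their sums over 7 were 163 to 218 in Jnk1 shRNA, 135 to 202 in GFP shRNA and 103 to 169 in vehicle arrays. Of 8 hepatocyte markers, which check the labelled tissue, 3 fell against GFP shRNA and 6 against vehicle, with medians of -0.16 and -0.19. Their sums were 28883 to 30685 in Jnk1 shRNA, 32037 to 33492 in GFP shRNA and 32055 to 35577 in vehicle arrays, so the Jnk1 shRNA arrays lay below all others. Alb, the serum albumin gene, differed by -0.04 against GFP shRNA (adjusted p = 0.608), and by -0.47 in the values as deposited (adjusted p = 0.00822). After median scaling of the arrays, 6 Kupffer cell, 1 endothelial, 1 stellate cell and 1 hepatocyte marker fell against GFP shRNA. These values stand beside the carriers that fell, Slc25a10, Slc25a11, Slc25a15, Slc25a37 and Slc25a51, and the part of other cell types in those falls was not tested.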

How the data were processed

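The authors deposited linear intensities for 22690 probe sets on 14 arrays, and the arrays as deposited share a trimmed mean (150.05 to 150.06 after removal of 2% at either end). The software behind them is not given in the sources used here. Array medians spanned 0.48 on the log2 scale, so arrays were quantile normalized, floored at the 5th percentile (2.01) and log2 transformed. The 64 control probe sets and the dimmest 40% of the other 22626 were left out, which left 13575 with a mean intensity of at least 28.4. Symbols came from the platform annotation. Group means of all 14 arrays were fitted with limma 3.58.1 in R 4.3.3 (11 residual degrees of freedom, 4.94 from the prior, intensity trend), with Benjamini-Hochberg adjustment over all probe sets, and the script was tested on simulated data. Log2 fold changes subtract 1 group's mean log2 intensity from another's, and the number of arrays limits the precision.

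The carriers, the companion and marker lists and the tests were chosen with earlier results of these data known. Values on every array are given for carriers that passed against GFP shRNA with a difference of at least 0.4, or against vehicle with at least 0.7, and for the main liver carriers. From each companion list the 4 genes of smallest p against GFP shRNA were named. Slc25a1 and the other family members without a probe set of 1 symbol were not analysed here. No clear pairing by replicate number was seen, as the deviations of arrays with the same number correlated at -0.24 to 0.12. In each comparison array 5 of the first group correlated best with array 5 of the second. Such correlations cannot show that samples were unpaired. Alternatives were the scaling, the filter on dim probe sets, a pseudocount of 16, the variance trend, array weights, the samples in the fit, the replicate block, the spike-in level, the choice of probe sets and leaving out each array.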

Additional observations from a re-analysis of the deposited data

Results flagged for a closer look

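In 9 of 84 groups of a tested carrier, 1 array stood apart from the others of its group by Dixon's criterion, which chance meets in about 1 group of 20. For Slc25a10, GFP shRNA array 2 was low at 8.46 (log2 intensity), against 9.12 to 9.23 in the others. For Slc25a28, Jnk1 shRNA array 2 was low at 6.22, against 6.44 to 6.52, and vehicle array 4 was low at 6.27, against 6.44 to 6.48. For Slc25a36, vehicle array 4 was low at 4.87, against 5.45 to 5.59. For Slc25a38, Jnk1 shRNA array 2 was low at 6.84, against 7.07 to 7.16, and GFP shRNA array 2 was high at 7.44, against 7.19 to 7.21. For Slc25a44, Jnk1 shRNA array 2 was low at 6.94, against 7.20 to 7.29, and GFP shRNA array 2 was low at 6.92, against 7.12 to 7.15. For Slc25a45, Jnk1 shRNA array 3 was high at 8.98, against 8.65 to 8.72.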

How the results depend on the processing

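Of 28 carrier differences that passed, recomputed under 26 alternatives each, 688 of 728 values kept direction and call, 39 lost the call and 1 reversed, Slc25a23 against GFP shRNA with the spike-in level in the fit (-0.064, adjusted p = 0.882). Of 56 that had not passed, 10 of 1447 values gained a call. Counts of carriers that passed were 11 to 14 against GFP shRNA and 11 to 14 against vehicle under the alternatives that kept all arrays, and 12 to 15 and 11 to 13 when each array was left out in turn. Between GFP shRNA and vehicle the count was 2 in the values as deposited, with Slc25a47 added, and 1 under every other alternative and with each array left out. With the replicate block the counts were 14, 13 and 1, and no count of calls changed. Scaling arrays to the same median put the median of all probe sets at 0.09 for Jnk1 shRNA against GFP shRNA, beside -0.01 as reported, and made 72.2% of calls higher, beside 52.3%, with 8 carriers higher and 3 lower. The calls of Slc25a5, Slc25a10 and Slc25a51 against GFP shRNA did not pass under it. With the spike-in level in the fit the members' median against GFP shRNA was -0.04, beside 0.14, with 6 higher and 5 lower, and against vehicle -0.12, beside 0.02, with 5 higher and 7 lower. The values of all probe sets in the fit with the spike-in level are not given here, and the cause of these changes was not tested. Low intensities limit Slc25a53, Slc25a36 and Slc25a26, which lie near the filter and were not tested when 60% of probe sets were left out.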
